A study of Rattus norvegicus with 12 samples.

Results

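The conjugation enzymes described here are the genes of rat liver that attach glutathione, glucuronic acid or sulfate to other molecules. They were taken by gene symbol from the annotation of an Affymetrix rat expression array. The families are the alpha, mu, theta, kappa and omega glutathione S-transferases (Gsta, Gstm, Gstt, Gstk, Gsto), the microsomal glutathione transferases (Mgst), the UDP-glucuronosyltransferases (Ugt) and the sulfotransferases (Sult). A gene entered where a probe set listed it as its only gene, represented by its brightest probe set on average. Gstp1 and Gstz1 were left out. This gave 43 genes of the 14217 measured, carried by 47 probe sets, with 20 glutathione transferases, 9 glucuronosyltransferases and 14 sulfotransferases. The 9 include Ugt8, which entered by its symbol but does not make glucuronides. The Ugt1 family is missing from the 43 because its probe sets each list 8 Ugt1a genes.

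Conjugation is the phase of detoxification in which the liver makes drugs, bilirubin, steroids, bile acids and products of lipid oxidation water-soluble so that they leave in bile or urine. Glutathione transferases join the tripeptide glutathione to reactive molecules, glucuronosyltransferases of the endoplasmic reticulum use UDP-glucuronic acid, and cytosolic sulfotransferases use the sulfate donor PAPS. In rats several of the Ugt2b and Sult genes differ between the sexes in adult liver, under control of the pattern of growth hormone release.

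Liver RNA was measured on 12 arrays, and every value is a level on the log2 scale, so that a difference of 1 is a 2-fold difference. Of these, 4 arrays held tumor and 4 held adjacent nontumor liver of Long Evans Cinnamon (LEC) rats at 67 weeks of age, with each array made from a mixture of 2 of 8 specimen pairs. A single RNA pool each came from LEC liver at 4, 26 and 39 weeks and from liver of Long Evans Agouti (LEA) control rats at 67 weeks. LEC rats carry a defective Atp7b, the copper exporter of hepatocytes, and develop copper-driven hepatitis and later liver tumors without treatment. LEA differs from LEC in strain as well as in disease, so those cannot be told apart, and the pools hold RNA of several rats in unstated numbers. P-values measure only the spread between these pooled samples, and 12 arrays give limited precision.

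The labels give all rats as male. Xist, which is transcribed where an X chromosome is silenced, lay between 11.36 and 13.12 on 10 arrays but at 5.27 and 5.67 on the arrays labelled 26 and 39 weeks. Eif2s3y, a Y-linked gene, reached 8.90 and 8.18 on these same 2 arrays, while its level elsewhere was 3.65 to 3.81. The 10 arrays with high Xist, which include every tumor, nontumor and LEA array, thus go against the male label, and the arrays at 26 and 39 weeks do not. Leaving out the pools at 26 and 39 weeks gave the same 35 lower and 2 higher members in tumor against nontumor liver. It could not do otherwise, because lone arrays add nothing to the spread, so it does not address the label. The 11 measured hepatocyte markers summed, as linear values, to between 17958 and 106282 on the tumor arrays, against 135785 to 153061 on the nontumor arrays. The highest of 15 probe sets for bacterial RNA that rat liver lacks reached at most 5.67 on the tumor arrays, 6.01 on the nontumor arrays and 6.16 on the others. A level at or under that height on its own array is called within the absent range.

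**Figure D1:**
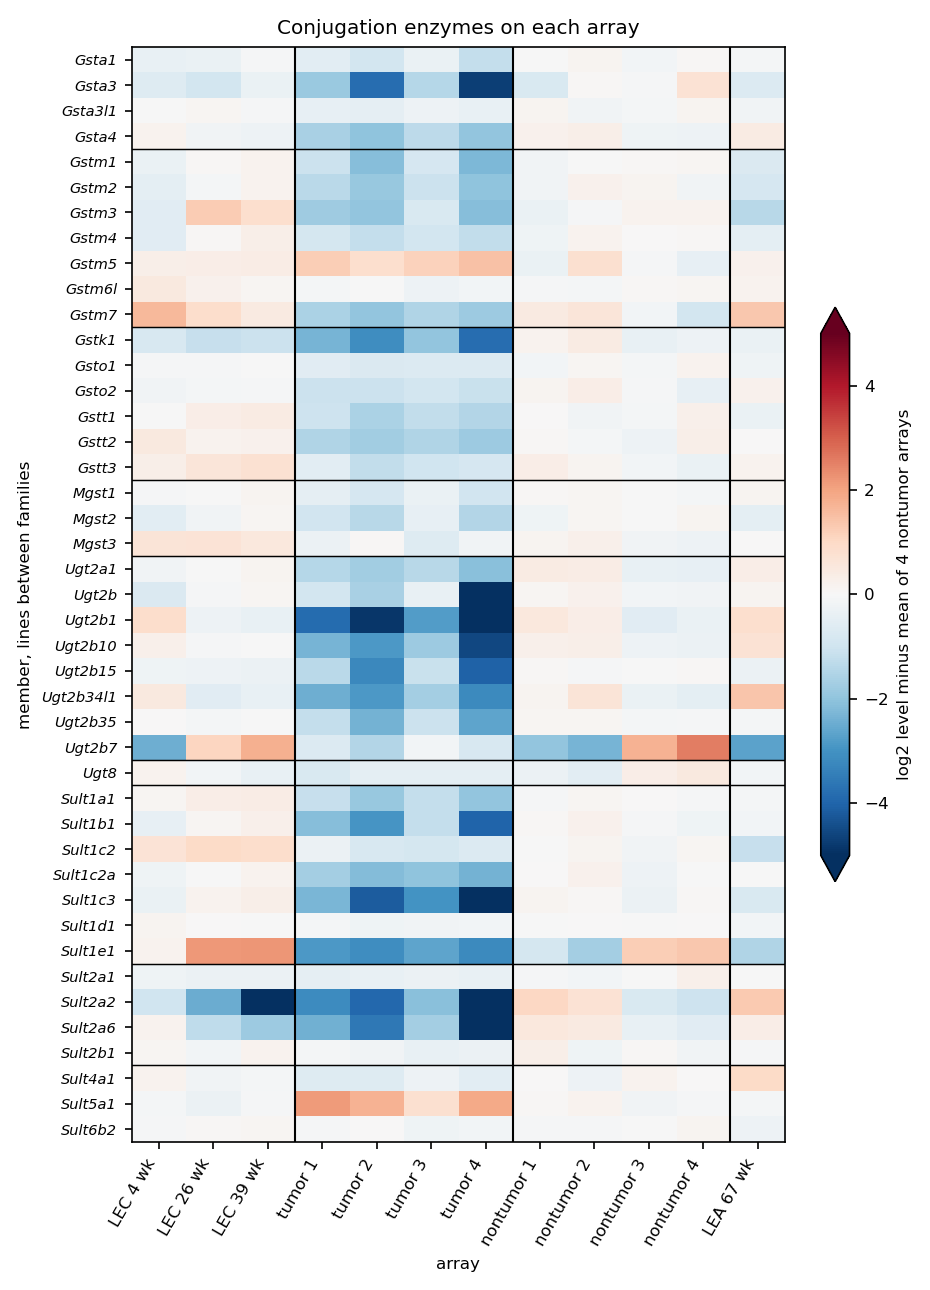
Each row is 1 of the 43 conjugation enzymes and each column 1 of the 12 arrays. Colour is the log2 level minus the mean of the 4 nontumor arrays, blue for lower and red for higher, with the scale ending at 5 in each direction. The tumor columns are blue for most members, with Gstm5 and Sult5a1 red, and Ugt2b7 and Sult1e1 differ in colour among the nontumor columns.

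The first comparison asks which members differ between the tumors and the liver beside them. Most of the enzymes fell: 35 of 43 were lower in tumor, 2 were higher and 6 did not pass the test (limma, Benjamini-Hochberg adjusted p under 0.05 over all probe sets). Over all 14217 genes 29.2% were called lower, 38.8% higher and 67.9% in either direction. Of the 35, 31 rose above the absent range on at least 1 array, and the other 4 (Gsta3l1, Ugt8, Sult1d1 and Sult2a1) were within it on all 12. The 15 absent bacterial probe sets themselves differed by a median of -0.16 between tumor and nontumor arrays, with differences between -0.38 and -0.09. The median member differed by -1.56, while the median over all genes was 0.07. Of the called falls, 25 exceeded 2-fold and 12 exceeded 4-fold. For 35 members every tumor array lay below every nontumor array, a pattern found in 27.7% of all genes, and for 2 members every tumor array lay above, found in 36.1%. The glucuronosyltransferases had the lowest median (-2.02, 7 of 9 lower), beside -1.11 for the sulfotransferases (11 of 14 lower, 1 higher) and -1.06 for the glutathione transferases (17 of 20 lower, 1 higher). Without Ugt8, the 8 Ugt2 genes had a median of -2.22, with 6 lower. The classes were not tested against each other. Because whole tissue was measured, fewer hepatocytes and less RNA per hepatocyte cannot be told apart in any of these values.

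**Figure D2:**
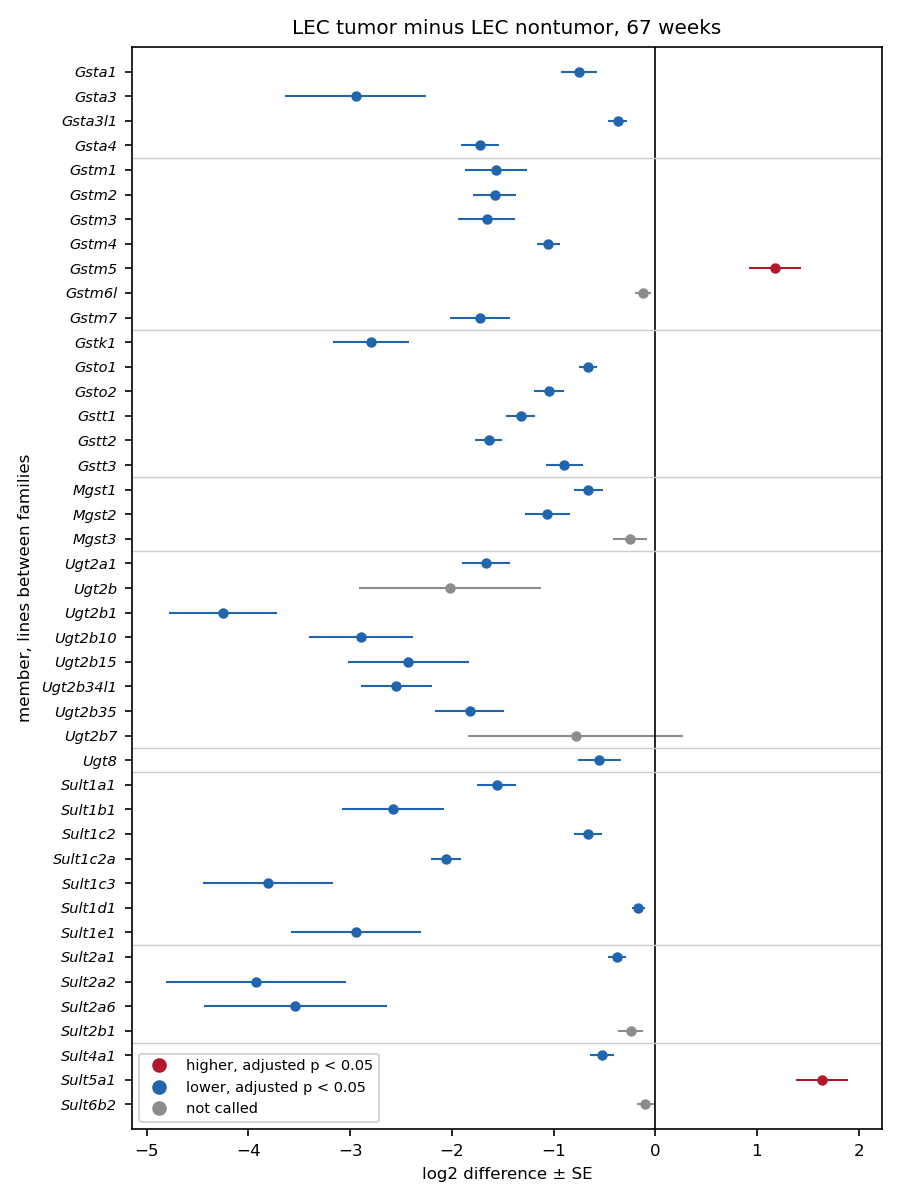
Each point is the log2 difference of 1 member, tumor minus nontumor at 67 weeks, and the bar its standard error (4 arrays each). Blue points were called lower, red points higher and grey points not called at an adjusted p of 0.05. The points run between -4.25 for Ugt2b1 and 1.64 for Sult5a1, and 41 of the 43 lie left of 0.

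All 4 alpha-class glutathione transferases fell, with differences between -2.95 and -0.37. Gsta1, an abundant hepatocyte transferase, lay at 13.02, 12.64, 13.22 and 12.36 on tumor arrays 1 to 4, against 13.52, 13.70, 13.41 and 13.62 on nontumor arrays 1 to 4. The groups did not overlap, and the difference was -0.75 ± 0.18 (SE, adjusted p = 0.00541). Gsta3 fell furthest of the class: it lay at 9.59, 7.64, 10.04 and 6.76 in tumor, against 10.70, 11.53, 11.40 and 12.19 in nontumor liver. Tumor arrays 2 and 4 lay well below arrays 1 and 3, without overlap with nontumor liver, and the mean difference was -2.95 ± 0.69 (adjusted p = 0.00558), a 7.70-fold fall. Gsta4, which conjugates the lipid peroxidation product 4-hydroxynonenal, lay at 10.01, 9.63, 10.32 and 9.65 in tumor, against 11.84, 11.90, 11.40 and 11.36 in nontumor liver. Its tumor arrays kept close together, at a difference of -1.72 ± 0.19 (adjusted p = 8.92e-05). The fourth member, Gsta3l1, stayed within the absent range on all 12 arrays, so its small called fall (-0.37) concerns a signal no higher than that of absent RNA.

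Of the 7 mu-class transferases 5 fell, Gstm5 rose and Gstm6l did not pass the test. Gstm1 lay at 12.47, 11.44, 12.73 and 11.32 on the tumor arrays, against 13.39, 13.55, 13.63 and 13.66 on the nontumor arrays (-1.57 ± 0.30, adjusted p = 0.00204). Gstm2, its close relative, lay at 11.49, 10.91, 11.76 and 10.81 in tumor, against 12.63, 13.04, 12.95 and 12.67 in nontumor liver (-1.58 ± 0.21, adjusted p = 0.000287). In both, tumor arrays 2 and 4 were the lower pair. Gstm3 (-1.66 ± 0.28), Gstm7 (-1.72 ± 0.30) and Gstm4 (-1.05 ± 0.11) fell as well. Gstm5 went the other way, at 8.33, 7.92, 8.26 and 8.54 in tumor, against 6.75, 7.88, 7.05 and 6.68 in nontumor liver. Its highest nontumor array came just under the lowest tumor array, and the difference was 1.17 ± 0.26 (adjusted p = 0.00386), a 2.26-fold rise.

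The RefSeq promoter of Gstm5 (assembly GRCr8, chr2:198219519-198219818, plus strand, 250 bases before to 50 after the start of the gene) is shown because Gstm5 was the single glutathione transferase that rose. Capitals mark TGACNNNGC, the core of the antioxidant response element that binds NRF2, searched on both strands; the matches begin at positions -113 and -53 from the start.
Gstm5: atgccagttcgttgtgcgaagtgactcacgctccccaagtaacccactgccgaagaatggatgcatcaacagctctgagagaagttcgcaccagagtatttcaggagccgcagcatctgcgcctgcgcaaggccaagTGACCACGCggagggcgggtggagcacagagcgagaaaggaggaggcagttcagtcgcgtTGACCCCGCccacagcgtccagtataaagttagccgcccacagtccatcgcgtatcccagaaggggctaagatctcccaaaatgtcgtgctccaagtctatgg
The same letters occur in 12.1% of all 33469 promoters of this length and in 4 of the 37 members with a promoter in the table, the other 3 being Gsta1, Gsta3 and Gstm7, which fell. Nfe2l2, which encodes NRF2, differed by 0.44 (adjusted p = 0.0550) between tumor and nontumor liver and was not called. A match is a description of the letters only.

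All 6 theta, kappa and omega transferases fell. Gstk1, found in mitochondria and peroxisomes, fell most: it lay at 10.54, 9.78, 10.93 and 9.09 in tumor, against 13.07, 13.30, 12.53 and 12.63 in nontumor liver. No nontumor array came near the tumor arrays, and the difference was -2.80 ± 0.37 (adjusted p = 0.000262). Gsto1, which also reduces dehydroascorbate, lay at 11.55, 11.37, 11.43 and 11.40 in tumor, against 11.95, 12.18, 12.01 and 12.26 in nontumor liver. Its 4 tumor arrays were nearly level, with the small difference of -0.66 ± 0.09 (adjusted p = 0.000272). Gstt3 lay at 11.43, 10.72, 10.94 and 11.09 in tumor, against 12.28, 12.08, 11.79 and 11.60 in nontumor liver (-0.90 ± 0.18, adjusted p = 0.00276). Gstt2 (-1.64 ± 0.13), Gstt1 (-1.32 ± 0.14) and Gsto2 (-1.05 ± 0.15) fell too.

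The microsomal transferases, membrane proteins of a separate lineage, had the smallest median fall of the glutathione transferase families (-0.66), with 2 of 3 lower. Mgst1, an abundant transferase and peroxidase of the endoplasmic reticulum, lay at 13.35, 12.95, 13.47 and 12.83 in tumor, against 13.85, 13.91, 13.78 and 13.69 in nontumor liver. The groups stayed apart at -0.66 ± 0.14 (adjusted p = 0.00387). Mgst2 lay at 11.21, 10.76, 11.75 and 10.69 in tumor, against 11.94, 12.25, 12.15 and 12.31 in nontumor liver (-1.06 ± 0.22, adjusted p = 0.00300). Mgst3 lay between 10.97 and 11.66 in tumor and between 11.34 and 11.87 in nontumor liver, overlapped, and was not called (-0.25 ± 0.17, adjusted p = 0.216).

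The glucuronosyltransferases held the member with the largest fall of the 43. Ugt2b1, which glucuronidates steroids and bisphenol A in rat liver, lay at 7.45, 6.45, 8.50 and 5.81 on the tumor arrays, against 11.85, 11.64, 10.74 and 10.98 on the nontumor arrays. Every tumor array was over 2 units below every nontumor array, and the difference was -4.25 ± 0.54 (adjusted p = 0.000191), a 19.0-fold fall. Ugt2b10 lay at 9.19, 8.64, 9.67 and 6.94 in tumor, against 11.76, 11.78, 11.24 and 11.21 in nontumor liver (-2.89 ± 0.51, adjusted p = 0.00124). Ugt2b34l1 lay at 7.03, 6.61, 7.78 and 6.27 in tumor, against 9.62, 10.13, 9.14 and 8.98 in nontumor liver (-2.55 ± 0.35, adjusted p = 0.000296). In all 3 genes tumor array 3 was highest and tumor array 4 lowest. Ugt2b35, one of the brightest of the family, lay at 11.40, 10.23, 11.55 and 9.97 in tumor, against 12.72, 12.69, 12.50 and 12.53 in nontumor liver (-1.82 ± 0.34, adjusted p = 0.00166). Ugt2b15, known in humans for conjugating dihydrotestosterone, fell by 2.43 ± 0.59, and Ugt2a1, first described in olfactory tissue, fell by 1.67 ± 0.24, with tumor array 4 within the absent range.

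For 2 Ugt2 members the arrays of a group disagreed. Ugt2b lay at 11.85, 11.15, 12.42 and 7.64 in tumor, against 12.90, 12.99, 12.64 and 12.60 in nontumor liver. All tumor arrays were below all nontumor arrays, but array 4 lay far under the other 3, and the difference of -2.02 ± 0.89 was not called (adjusted p = 0.0743). Without tumor array 4 it was -0.97 (adjusted p = 0.0160), without tumor array 3 it was -2.57 (adjusted p = 0.0327), and the other probe set of the gene gave -4.09 ± 0.60 (adjusted p = 0.000458). Ugt2b7 lay at 7.87, 7.10, 8.42 and 7.75 in tumor, against 6.61, 6.24, 10.29 and 11.13 in nontumor liver. The tumor arrays fell between a low and a high pair of nontumor arrays, and the difference was -0.78 ± 1.06 (adjusted p = 0.534). It was -1.44 without nontumor array 1, -1.56 without nontumor array 2 and 0.07 without nontumor array 4. Ugt8, which makes galactosylceramide and not glucuronides, stayed within the absent range on all 12 arrays.

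The promoters of Ugt2b1 (chr14:21378632-21378931, plus strand) and Ugt2b7 (chr14:21251285-21251584, plus strand; both GRCr8, RefSeq, same window) are shown because these family members, on the same chromosome, had unlike patterns. Capitals mark a C/EBP core in Ugt2b1 (TTGCNNAA, here read on the opposite strand) and a STAT5 core in Ugt2b7 (TTCNNNGAA); STAT5 transmits the growth hormone signal.
Ugt2b1: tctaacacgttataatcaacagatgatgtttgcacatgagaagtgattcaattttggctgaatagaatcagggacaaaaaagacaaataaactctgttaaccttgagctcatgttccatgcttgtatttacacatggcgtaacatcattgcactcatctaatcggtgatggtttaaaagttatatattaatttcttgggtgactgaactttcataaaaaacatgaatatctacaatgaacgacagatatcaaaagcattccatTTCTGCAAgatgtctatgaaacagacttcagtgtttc
Ugt2b7: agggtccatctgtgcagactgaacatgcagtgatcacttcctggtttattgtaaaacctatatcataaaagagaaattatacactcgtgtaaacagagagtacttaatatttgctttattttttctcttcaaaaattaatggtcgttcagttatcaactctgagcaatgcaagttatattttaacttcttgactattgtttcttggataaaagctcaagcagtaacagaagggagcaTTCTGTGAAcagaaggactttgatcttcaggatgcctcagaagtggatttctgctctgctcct
A global alignment matched 186 of 333 columns (55.9%). The C/EBP core was in 10.6% of all promoters and in 12 of the 37 members matched. The STAT5 core was in 8.87% of all promoters and in 4 of the 37 members (Gsta1, Gsta3, Gsto1 and Ugt2b7).

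All 7 members of the Sult1 family were called lower in tumor. Sult1a1, which sulfates phenols and is abundant in liver, lay at 11.98, 11.23, 11.95 and 11.16 in tumor, against 13.08, 13.23, 13.17 and 13.08 in nontumor liver (-1.56 ± 0.19, adjusted p = 0.000178). Sult1b1, which sulfates thyroid hormones, lay at 10.62, 9.80, 11.54 and 8.73 in tumor, against 12.81, 12.96, 12.69 and 12.55 in nontumor liver (-2.58 ± 0.50, adjusted p = 0.00208). The nontumor arrays of both were nearly level, while the tumor arrays of Sult1b1 spread over more than 2 units. Sult1c3 lay at 10.06, 8.21, 9.35 and 6.55 in tumor, against 12.50, 12.42, 12.06 and 12.43 in nontumor liver. The difference was -3.81 ± 0.64 (adjusted p = 0.000934), a 14.0-fold fall, and -3.14 without tumor array 4. Sult1c2a had the lowest adjusted p of the 43 (-2.06 ± 0.15, adjusted p = 1.11e-05), with tumor arrays between 8.70 and 9.36 and nontumor arrays between 10.80 and 11.28.

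Sult1e1, the estrogen sulfotransferase, lay at 5.59, 5.38, 5.86 and 5.30 on the tumor arrays, against 7.61, 6.77, 9.70 and 9.83 on the nontumor arrays. Tumor arrays 1, 2 and 4 were within the absent range, and nontumor arrays 3 and 4 were over 2 units above nontumor arrays 1 and 2. The difference was -2.94 ± 0.64 (adjusted p = 0.00371). Sult1c2 fell by 0.66 ± 0.14. Sult1d1 was within the absent range on all 12 arrays, and its call (-0.17, adjusted p = 0.0422) was lost when arrays of equal title number formed a block (adjusted p = 0.102) and on leaving out any 1 of the 8 arrays.

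In the Sult2 family, which sulfates hydroxysteroids and bile acids, Sult2a2 and Sult2a6 were bright in nontumor liver and spread widely in tumor. Sult2a2 lay at 8.52, 7.72, 9.56 and 5.15 on the tumor arrays, against 12.70, 12.40, 10.92 and 10.64 on the nontumor arrays. Sult2a6 lay at 9.44, 8.26, 10.14 and 5.35 in tumor, against 12.35, 12.27, 11.48 and 11.26 in nontumor liver. In both genes tumor array 4 was within the absent range and the nontumor arrays fell into a higher pair (1 and 2) and a lower pair (3 and 4). The differences were -3.93 ± 0.89 (adjusted p = 0.00449) for Sult2a2 and -3.54 ± 0.90 (adjusted p = 0.00810) for Sult2a6. Without tumor array 4 they were -3.06 and -2.56, and without tumor array 3 they were -4.53 and -4.15, all still called. Sult2b1, which sulfates cholesterol in skin, was not called by its brightest probe set (-0.24, adjusted p = 0.110) but fell by its other one (-1.40 ± 0.24, adjusted p = 0.00107). Sult2a1 fell by 0.38 within the absent range.

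The promoters of Sult2a2 (chr1:85104483-85104782, minus strand) and Sult2a6 (chr1:84097759-84098058, minus strand, both GRCr8, RefSeq) are shown because both genes ranked the tumor and nontumor arrays in the same order. Their levels ran less alike over the age pools. Between 26 and 39 weeks Sult2a2 went from 9.20 to 6.26 and Sult2a6 from 10.55 to 10.04. Capitals mark, in order, the C/EBP core TTGCNNAA and the letters GTTAAT, bound by HNF1.
Sult2a2: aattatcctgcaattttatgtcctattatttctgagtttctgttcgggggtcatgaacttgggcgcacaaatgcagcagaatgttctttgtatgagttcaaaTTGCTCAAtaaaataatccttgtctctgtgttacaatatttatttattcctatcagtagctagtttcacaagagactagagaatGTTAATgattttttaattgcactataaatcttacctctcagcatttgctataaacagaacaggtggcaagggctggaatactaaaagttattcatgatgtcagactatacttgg
Sult2a6: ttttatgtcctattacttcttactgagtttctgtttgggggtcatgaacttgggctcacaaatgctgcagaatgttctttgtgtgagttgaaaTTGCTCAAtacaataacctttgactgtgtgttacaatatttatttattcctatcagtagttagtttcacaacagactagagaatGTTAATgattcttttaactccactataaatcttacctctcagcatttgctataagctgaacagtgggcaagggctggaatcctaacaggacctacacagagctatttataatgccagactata
The 2 windows matched in 258 of 318 aligned columns (81.1%), and both carry the same pair of matches. The letters GTTAAT were in 7.45% of all promoters and in 5 of the 37 members matched (Gsta1, Gsta3, Sult2a2, Sult2a6 and Ugt2b10). Whether the probes of close copies such as this pair bind each other's RNA was not tested, and probe sequences were not used here.

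Sult5a1, a sulfotransferase with little known of its substrates, was the member that rose most. It lay at 10.52, 10.14, 9.19 and 10.31 on the tumor arrays, against 8.47, 8.56, 8.23 and 8.35 on the nontumor arrays. Tumor array 3 was lowest and still above every nontumor array, and the rise was 1.64 ± 0.25 (adjusted p = 0.000617), or 3.12-fold. The levels at 4, 26 and 39 weeks (8.31, 8.13 and 8.35) and in LEA liver (8.30) were like those of nontumor liver. Sult4a1, a sulfotransferase of brain, fell by 0.52 ± 0.12, near the absent range. Its tumor arrays lay at 5.71, 5.73, 6.10 and 5.81, where the absent range reached 5.67, 5.59, 5.52 and 5.59. Sult6b2 lay between 6.40 and 6.66 in tumor and between 6.55 and 6.77 in nontumor liver and was not called (-0.10, adjusted p = 0.315). The Sult5a1 promoter (chr19:68112607-68112906, minus strand, GRCr8, RefSeq) is shown beside that of Gstm5, the other member that rose; the 4 cores searched, GTTAAT, TTGCNNAA, TGACNNNGC and TTCNNNGAA, had no match in this window, so it has no capitals.
Sult5a1: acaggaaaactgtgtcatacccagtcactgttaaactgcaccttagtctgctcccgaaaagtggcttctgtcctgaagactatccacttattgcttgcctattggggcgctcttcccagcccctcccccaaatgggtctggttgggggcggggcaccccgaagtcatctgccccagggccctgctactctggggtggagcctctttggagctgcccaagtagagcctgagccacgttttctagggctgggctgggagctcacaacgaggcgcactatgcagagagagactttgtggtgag

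The members did not fall evenly over the 4 tumor arrays. Tumor array 4 was the lowest of the 4 for 25 of 43 members, and tumor array 3 the highest for 26. Array 4 was lowest for 18.5% of all genes and for 34.8% of the genes called lower, against 24 of the 35 members called lower. Relative to the nontumor mean, the median member lay at -1.08, -1.63, -0.93 and -1.82 on tumor arrays 1 to 4. The glucuronosyltransferases varied most (-1.35, -2.38, -1.10 and -3.19) and the glutathione transferases less (-1.0, -1.31, -0.87 and -1.33), with the sulfotransferases at -0.91, -1.36, -1.04 and -1.33.

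Hepatocyte markers moved in the same array order as the median member, the glucuronosyltransferases and the glutathione transferases. The sulfotransferases had another order. Their median lay at -1.18, -3.10, -0.43 and -5.31 on tumor arrays 1 to 4, and 8 of 11 were called lower (median difference -2.41). None was within the absent range on tumor arrays 1 to 3, and Tat, an enzyme of tyrosine breakdown, was on array 4. Bile duct markers rose for 8 of 8 measured (median 4.18, summed level 36099 to 44199 in tumor, against 1961 to 5531 in nontumor liver). Matrix and stellate cell markers rose for 10 of 10 (median 2.25, summed level 22465 to 35428 in tumor, against 4343 to 6111 in nontumor liver). The part of cell content in the falls of the conjugation enzymes was not tested. Members below every nontumor array numbered 37, 35, 39 and 38 of 43 on tumor arrays 1 to 4, where 35.8%, 36.1%, 36.3% and 34.0% of all genes lay below. Hepatocyte markers below every nontumor array numbered 11, 11, 9 and 11 of 11.

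**Figure D3:**
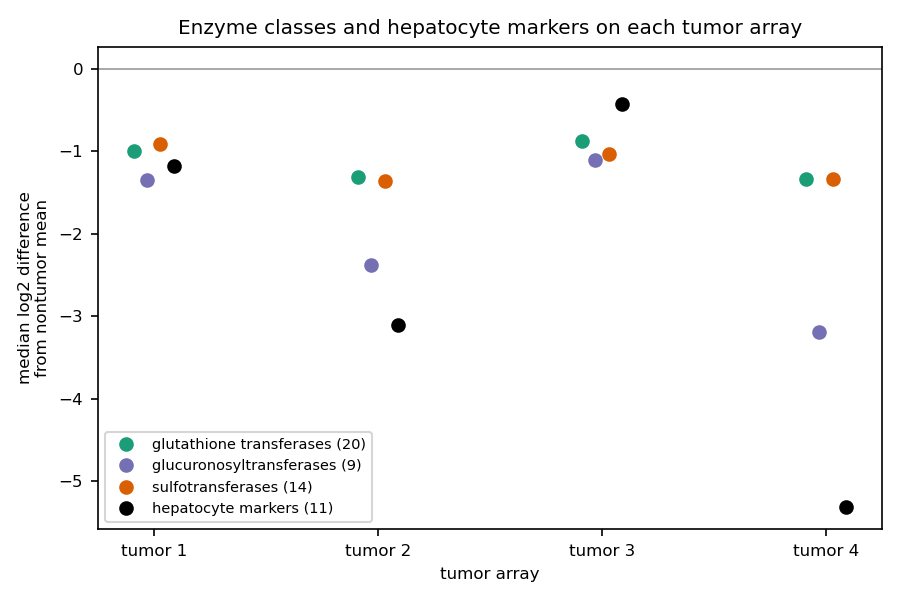
The vertical axis is the median log2 difference from the mean of the nontumor arrays, for each enzyme class and for the hepatocyte markers, on each of the 4 tumor arrays (number of genes in brackets). Hepatocyte markers run between -0.43 on array 3 and -5.31 on array 4, while the glutathione transferases stay between -0.87 and -1.33.

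Of 14 measured genes for the supply of conjugation cofactors, 10 were lower in tumor and 2 were higher. Cbs (-3.67 ± 0.34) and Cth (-3.54 ± 0.89), which make cysteine from methionine, fell most, and both genes of the glutathione-limiting ligase fell (Gclc -1.76 ± 0.21, Gclm -1.29 ± 0.20). Ugp2 (-1.07 ± 0.16) and Ugdh (-0.76 ± 0.18), which make UDP-glucuronic acid, fell too. The genes of PAPS synthesis parted: Papss2 fell by 1.41 ± 0.17, while Papss1 lay at 11.82, 11.86, 11.15 and 12.09 in tumor, against 8.74, 9.40, 9.49 and 8.43 in nontumor liver. Papss1 thus rose by 2.71 ± 0.28 (adjusted p = 5.86e-05) with no overlap, and Slc35b2, which carries PAPS into the Golgi, rose by 0.94 ± 0.12.

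Among 6 transporters that export conjugates, 3 fell and 2 rose. Abcc2, the canalicular pump that puts glutathione and glucuronide conjugates into bile, lay at 7.96, 6.76, 8.58 and 6.60 in tumor, against 12.03, 11.85, 11.18 and 11.29 in nontumor liver (-4.11 ± 0.43, adjusted p = 6.92e-05). Abcc6 (-2.18 ± 0.27) and Abcg2 (-1.74 ± 0.13) fell, while the basolateral pumps Abcc1 (1.06 ± 0.14) and Abcc4 (0.84 ± 0.23) rose. Abcc3 was not called (0.33, adjusted p = 0.0511). Another list measured 14 other detoxification enzymes, among them methyl- and acetyltransferases but also hydrolases and quinone reductases, which do not conjugate. Of these 11 fell and 0 rose (2 of 14 had a positive difference in limma). The conjugate hydrolases gave 2 lower and 1 higher of 4. Of 11 transcriptional regulators 7 fell and 0 rose, among them the xenobiotic receptors Nr1i2 (-1.90 ± 0.17) and Nr1i3 (-1.36 ± 0.19) and Hnf4a (-1.14 ± 0.18), and 2 of the 11 had a positive difference. At an unadjusted p under 0.05, 0 of the 14 other enzymes and 1 of the 11 regulators, Nfe2l2, was higher.

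LEC nontumor liver at 67 weeks was compared with LEA liver of the same age to find what differs between the strains outside the tumors. No conjugation enzyme was called in either direction with limma (0 of 43), where 0.232% of all genes were called higher and 0.331% lower. At an unadjusted p under 0.05, 4 members were higher (5.12% of all genes) and 3 lower (7.24%). The median member differed by 0.10 and the median gene by -0.03. Every nontumor array lay above the LEA array for 15 members and below it for 9 (20.0% and 28.8% of all genes), and 19 spanned it. A single LEA array carries this comparison, and it was assumed to vary like the replicated groups, tumor arrays included. Ugt2b, for example, had a standard deviation of 2.15 in tumor and 0.19 in nontumor liver. In simulated data this comparison recovered 1 of 50 changes of 0.5, 27 of 50 of 1 and 48 of 50 of 2. Those changes were set in probe sets drawn from the whole array, with the LEA array given the same spread as the others. Several members had wide standard errors here, such as Ugt2b (1.41), Sult2a6 (1.42) and Ugt2b7 (1.67). The simulated recovery does not apply to such members. The absence of calls therefore does not show equal levels.

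Sult1c2 came nearest to the threshold: it lay at 8.01, 8.19, 7.87 and 8.13 in nontumor liver, against 6.89 in LEA liver (1.16 ± 0.22, adjusted p = 0.0705). It was 8.73, 9.0 and 8.92 at 4, 26 and 39 weeks, so all 7 LEC arrays outside tumor lay above the LEA array. The tumor arrays, at 7.78, 7.25, 7.17 and 7.37, lay above it too. Sult4a1 lay at 6.37, 6.12, 6.55 and 6.39 in nontumor liver, against 7.30 in LEA liver (-0.94 ± 0.19, adjusted p = 0.0853). The LEA array was also above the arrays at 4, 26 and 39 weeks (6.53, 6.18 and 6.25). Sult1c2 passed the threshold with quantile normalization again (adjusted p = 0.0371) and without tumor array 1 (adjusted p = 0.0314), and Sult4a1 with array weights (adjusted p = 0.0354) and quantile normalization again (adjusted p = 0.0494).

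The mu class gave 3 of the 4 members that were higher at an unadjusted p under 0.05. None of the 4 was called, and whether Gstm probes bind each other's RNA was not tested. Gstm3 lay at 8.62, 8.89, 9.13 and 9.13 in nontumor liver, against 7.56 in LEA liver (1.38 ± 0.44, adjusted p = 0.257; 0.0409 without tumor array 3). Gstm2 (0.82 ± 0.34, adjusted p = 0.377) and Gstm4 (0.50 ± 0.17, adjusted p = 0.302) had differences of the same sign. Gstm7 had the opposite one, at 9.54, 9.69, 8.97 and 8.20 in nontumor liver, against 10.44 in LEA liver (-1.34 ± 0.47, adjusted p = 0.302). Ugt2b34l1 lay at 9.62, 10.13, 9.14 and 8.98 in nontumor liver, against 10.85 in LEA liver (-1.38 ± 0.55, adjusted p = 0.358). Gstm7 and Ugt2b34l1 had all nontumor arrays below the LEA array, and Gstm3 had all above it.

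**Figure D4:**
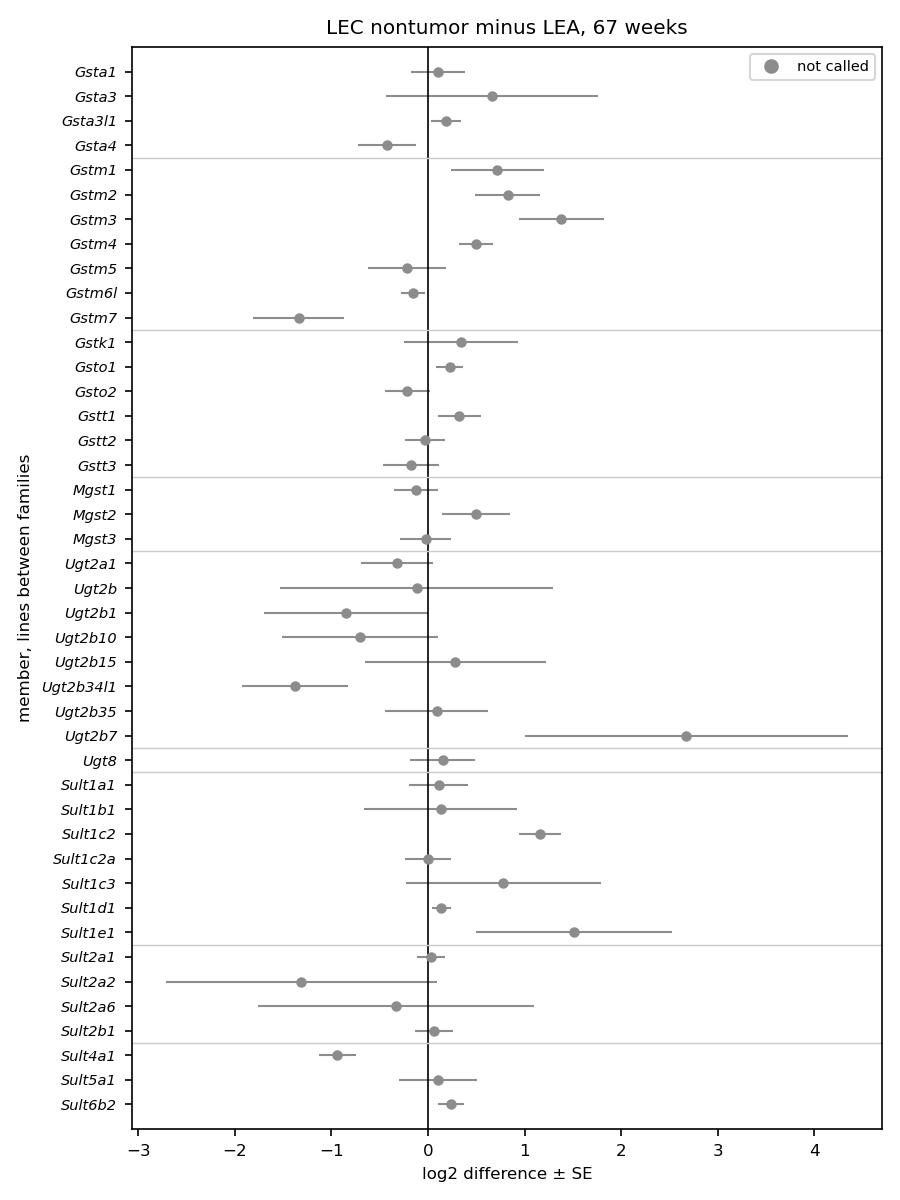
Each point is the log2 difference of 1 member, nontumor minus LEA liver at 67 weeks, and the bar its standard error (4 arrays against 1). All points are grey because no member was called at an adjusted p of 0.05, and the differences run between -1.38 for Ugt2b34l1 and 2.67 for Ugt2b7.

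Over the ages of the LEC rats the family medians moved by different amounts. Relative to the LEA array, the mu-class median was 0.33, 0.54 and 0.79 at 4, 26 and 39 weeks, with 0.50 in nontumor liver at 67 weeks and -0.55 in tumor. The Ugt2 median was -0.23, -0.26 and -0.10 at 4, 26 and 39 weeks, with -0.22 in nontumor liver and -2.14 in tumor. The Sult2 median, over 4 genes, was -0.17, -0.94 and -1.19 at 4, 26 and 39 weeks, with -0.15 in nontumor liver and -2.11 in tumor. The Mgst median, over 3 genes, was -0.01, 0.33 and 0.49 at 4, 26 and 39 weeks, with -0.02 in nontumor liver and -0.56 in tumor. Against each age pool, again a lone array with the same limit, limma called 0 members in nontumor liver. The shares of all genes called higher and lower were 0.232% and 0.232% against 4 weeks, 0.0422% and 0.197% against 26 weeks, and 0.0141% and 0.141% against 39 weeks. Every nontumor array lay above the pool for 13 members and below it for 8 against 4 weeks (24.6% and 24.3% of all genes), for 9 and 10 against 26 weeks (18.9% and 29.0%), and for 5 and 13 against 39 weeks (13.3% and 32.3%). At an unadjusted p under 0.05 the members numbered 1 higher and 5 lower against 4 weeks (7.17% and 6.33% of all genes), 0 and 3 against 26 weeks (3.77% and 8.05%), and 1 and 2 against 39 weeks (2.19% and 8.2%).

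Gstm7 had the largest difference from 4 weeks at an unadjusted p under 0.05. It lay at 10.73, 9.97 and 9.53 at 4, 26 and 39 weeks and at 9.54, 9.69, 8.97 and 8.20 on the nontumor arrays at 67 weeks (nontumor minus 4 weeks -1.63 ± 0.47, adjusted p = 0.188). All nontumor arrays were below the 4 week array. Sult1c2 lay lower in nontumor liver than in each age pool but was not called, differing by -0.68 ± 0.22 against 4 weeks (adjusted p = 0.234), -0.95 ± 0.22 against 26 weeks (adjusted p = 0.190) and -0.86 ± 0.22 against 39 weeks (adjusted p = 0.251). Mgst3 lay at 12.25, 12.27 and 12.11 at 4, 26 and 39 weeks, above all nontumor arrays at 67 weeks (11.34 to 11.87).

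Among the age pools, with 1 array each and no test, few members passed 2-fold. Between 26 and 4 weeks 3 members were higher and 4 lower (2.57% and 0.563% of all genes), between 39 and 4 weeks again 3 and 4 (2.51% and 0.549%), and between 39 and 26 weeks 0 and 1 (0.0774% and 0.134%). Ugt2b7 lay at 6.13, 9.66 and 10.35 at 4, 26 and 39 weeks, where the first value is within the absent range. Sult1e1 lay at 8.67, 10.64 and 10.70, and Gstm3 at 8.37, 10.20 and 9.78. These 3 were higher on both later arrays than at 4 weeks. Sult2a2 lay at 10.66, 9.20 and 6.26 and Sult2a6 at 12.01, 10.55 and 10.04 at 4, 26 and 39 weeks. These genes were lower on both later arrays than at 4 weeks. Ugt2b1 (12.17, 11.06 and 10.94) was also past 2-fold lower on both later arrays, Ugt2b34l1 (9.97, 8.91 and 9.08) at 26 weeks and Gstm7 at 39 weeks. The falls of Sult2a2 and Sult2a6 did not continue in nontumor liver, which came from older LEC rats. There Sult2a2 lay between 10.64 and 12.70 and Sult2a6 between 11.26 and 12.35, above the arrays at 26 and 39 weeks.

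The arrays at 26 and 39 weeks are those with low Xist and high Eif2s3y, and age cannot be told apart from that difference here. The male-biased liver genes, 9 measured of 12 listed, had a median of 0.45, 2.94 and 2.79 at 4, 26 and 39 weeks relative to the nontumor mean. The female-biased genes, 10 measured of 11, had a median of -1.90 at 26 weeks and -1.74 at 39 weeks. For these genes the nontumor mean was above the 4 week pool by a median of 0.28. Cyp2c11, the main male-specific cytochrome P450 of rat liver, lay at 12.80, 13.91 and 13.99 at 4, 26 and 39 weeks. Slco1a1, also on the male-biased list, lay at 11.30, 10.88 and 10.89. All 9 male-biased genes were above the nontumor mean at 26 and 39 weeks.

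Among the members past 2-fold between age pools, Ugt2b7, Sult1e1, Sult2a2 and Sult2a6 divided the nontumor arrays into pairs. So did 3 others, with arrays 3 and 4 as the lower pair. Ugt2b1 was 11.85 and 11.64 on arrays 1 and 2, and 10.74 and 10.98 on arrays 3 and 4. Gstm7 was 9.54 and 9.69, then 8.97 and 8.20, and Ugt2b34l1 was 9.62 and 10.13, then 9.14 and 8.98. The share of all genes that divide this way was not counted. Gstm3, at 8.62, 8.89, 9.13 and 9.13 on nontumor arrays 1 to 4, kept closer together. Ugt2b7 was 10.29 and 11.13 on nontumor arrays 3 and 4, and 6.61 and 6.24 on arrays 1 and 2. Sult1e1 was 9.70 and 9.83 on arrays 3 and 4, and 7.61 and 6.77 on arrays 1 and 2. For Sult2a2 and Sult2a6 arrays 3 and 4 were the lower pair, as given above. Cyp2c11 was 10.77 and 9.99 on arrays 3 and 4, and 8.24 and 7.58 on arrays 1 and 2, all well under the arrays at 26 and 39 weeks. The male-biased median was 0.81 and 0.47 on arrays 3 and 4, and -0.71 and -0.93 on arrays 1 and 2, while the female-biased median was -0.74 and -0.21 on arrays 3 and 4, and 0.51 and 0.27 on arrays 1 and 2. Xist was 11.64 and 11.40 on arrays 3 and 4, and 11.74 and 11.95 on arrays 1 and 2. Eif2s3y was 3.80 and 3.81 on arrays 3 and 4, and 3.76 and 3.74 on arrays 1 and 2, far under the arrays at 26 and 39 weeks. The pairs were seen in the data and are not groups of the study, so the division is described and not tested.

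**Figure D5:**
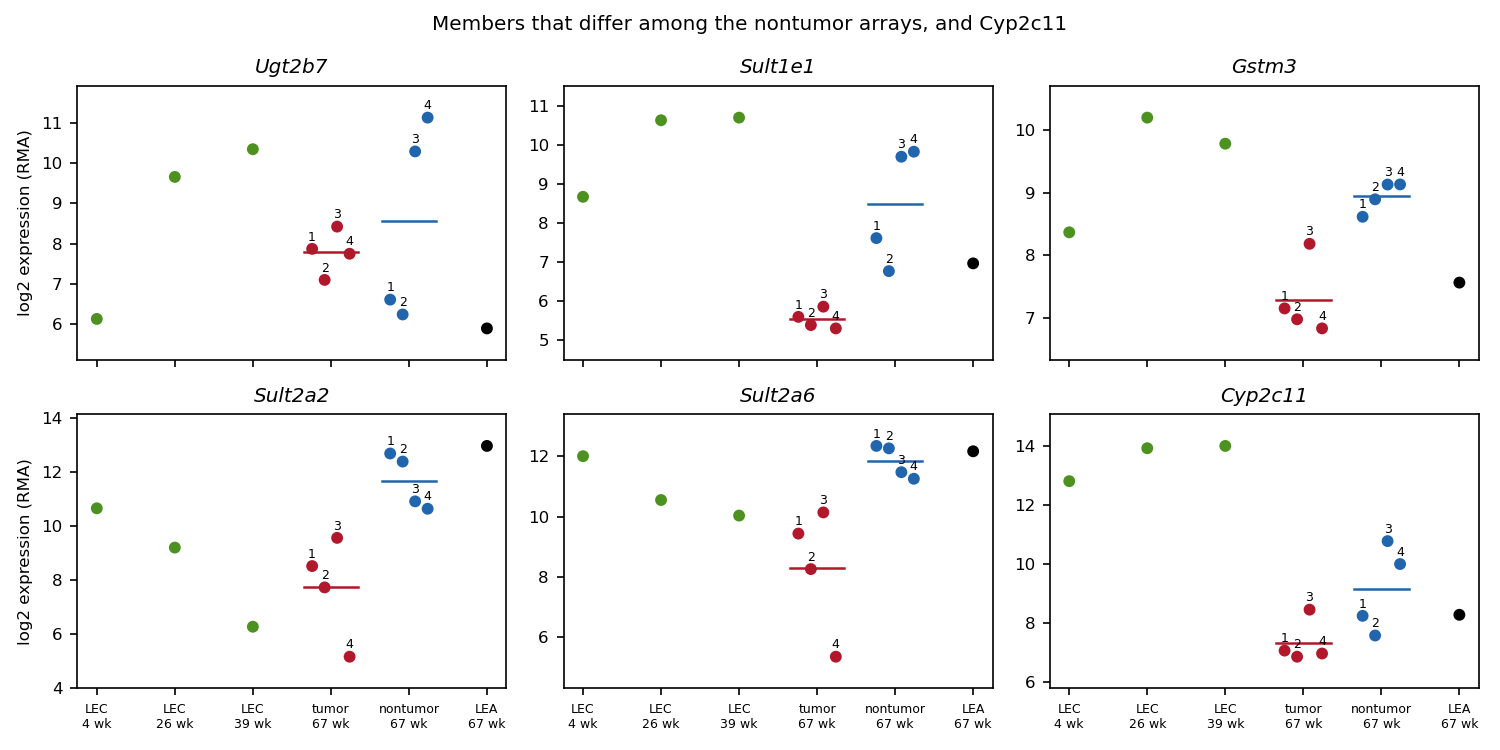
Log2 levels of 5 members and of Cyp2c11 on each array, with LEC liver at 4, 26 and 39 weeks in green, tumor in red, nontumor in blue (numbers are array numbers, lines are group means of 4) and LEA in black. Nontumor arrays 3 and 4 stand above arrays 1 and 2 for Ugt2b7, Sult1e1 and Cyp2c11 and below them for Sult2a2 and Sult2a6. The nontumor arrays of Gstm3 stay between 8.62 and 9.13.

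On the tumor arrays Ugt2b7 lay between 7.10 and 8.42 on the tumor arrays, above nontumor arrays 1 and 2 and below arrays 3 and 4. Sult1e1 lay between 5.30 and 5.86, below all nontumor arrays and mostly within the absent range. Against LEA liver the Ugt2b7 and Sult1e1 differences of nontumor liver were 2.67 ± 1.67 (adjusted p = 0.572) and 1.51 ± 1.01 (adjusted p = 0.598), not called, and the LEA level of Ugt2b7 (5.89) was within the absent range. Against 39 weeks Sult2a2 differed by 5.40 ± 1.40 (adjusted p = 0.270), with all nontumor arrays above the pool.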

How the data were processed

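The authors deposited log2 expression levels. RMA and R 2.6.1 are named in the submitters' processing notes. The labels' protocols state 3 µg of total RNA as the input. RMA subtracts background, normalizes by quantiles and summarizes probes. Whether all 12 arrays were normalized together is not stated. Promoter windows came from RefSeq (GRCr8).

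Of 31099 probe sets 57 controls were left out, and 31042 were tested in 1 model of 6 group means with limma 3.58.1 in R 4.3.3 (6 residual degrees of freedom, 2.84 of the prior). Tests were two-sided, and Benjamini-Hochberg adjustment ran over all of these with a threshold of 0.05. Lone arrays add nothing to the spread. The annotation gave 20826 probe sets 1 gene, 436 several and 9780 none listed here, and symbols were updated through 20758 matched Entrez identifiers. The fit was tested on simulated data. Background percentages are over the 14217 genes.

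Array values are printed for the 10 largest called rises and falls, for the 2 brightest members of each family and, picked after their values were seen, for age-pool differences past 2-fold and members at an unadjusted p under 0.05. Members and lists (cofactors, exporters, hydrolases, regulators, sex-biased genes and cell types) were chosen with earlier results of these data known. Alternatives were quantile normalization again, array medians subtracted, dim probe sets removed, array weights, a trended robust prior, other probe sets of a gene, the title number as a block, no arrays labelled 26 and 39 weeks, and each replicate left out. Macrophage (3 higher and 3 lower of 8), endothelial (4 and 4 of 8) and lymphocyte markers (3 and 1 of 7) were also counted in tumor against nontumor liver, as were male-biased (0 and 8 of 9) and female-biased genes (1 and 7 of 10). Figures used matplotlib 3.10.9 and Python 3.11.15.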

Additional observations from a re-analysis of the deposited data

Results flagged for a closer look

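Among the 86 sets of 4 arrays (43 members in tumor and in nontumor liver) a far value was found in 2, where chance gives about 1 in 20. Gsto2 lay at 6.79 on tumor array 3, far from the next value of 6.62 and the others of its group. Ugt8 lay at 4.35 on tumor array 1, with the next at 4.61, and all its values are within the absent range.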

How the results depend on the processing

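Under 17 alternatives the members lower in tumor numbered 28 to 37 (main value 35; 33 to 34 on leaving out 1 array), and 28 came from removing dim probe sets, which left 34 members to test. The 2 higher members, Gstm5 and Sult5a1, and 32 of the 35 lower ones were called under every alternative that gave a value; Gsta3l1, Ugt8 and Sult1d1, all within the absent range, were lost under at least 1. Ugt8 was lost without any of tumor arrays 1 to 4 or nontumor arrays 3 and 4. Subtracting array medians or normalizing by quantiles again shifted the median gene by -0.10. With the title number as a block 34 members were lower and 2 higher; same-numbered tumor and nontumor arrays correlated at 0.05, 0.14, -0.08 and 0.14 in their deviations, and in 3 of 4 pairs the best match was the own number. Tumor and adjacent tissue came from the same specimen pairs, but the labels do not say that equal numbers mark the same pairs. In nontumor against LEA liver the higher members numbered 1 with quantile normalization again, and 0 to 1 on leaving out 1 array (1 without tumor array 1 or tumor array 3). The lower members numbered 1 with array weights and 1 with quantile normalization again. Against the age pools the counts stayed at 0 under all alternatives run. No direction of a called member reversed. The alternatives without the arrays at 26 and 39 weeks give no value for comparisons with those ages, and the block gives none outside tumor against nontumor liver. Leaving out those lone arrays could not change the other comparisons, so it is no check on them. Signals near the absent range limit the values of Sult1e1, Sult2a2, Sult2a6 and Sult4a1 in tumor.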

Other observations

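Probe sets listing several genes stand outside the 43 members but hold further conjugation enzymes, and their values were picked out after being seen. One that lists RGD1562392 and Sult1c2 lay at 6.89, 6.34, 6.78 and 6.42 in tumor, against 8.63, 8.74, 8.53 and 8.90 in nontumor liver (-2.09 ± 0.14, limma adjusted p = 7e-06). It was 8.52, 8.86 and 9.10 at 4, 26 and 39 weeks and 6.90 in LEA liver, and nontumor was called higher than LEA (1.80 ± 0.22, adjusted p = 0.0111). All 7 LEC arrays outside tumor lay above the LEA array, and the tumor arrays lay at or below its level. By the probe set that lists Sult1c2 alone, the tumor arrays lay above the LEA array.

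A probe set for Gsta5 and Gsta2, alpha-class transferases, lay at 10.27, 7.89, 10.51 and 7.19 in tumor, against 12.47, 12.26, 12.46 and 12.87 in nontumor liver (-3.55 ± 0.70, adjusted p = 0.00222). The 2 probe sets that list 8 Ugt1a genes, which include the bilirubin-conjugating enzyme, moved less. One differed by -0.34 ± 0.14 (adjusted p = 0.0647, not called) and the other fell by 0.82 ± 0.20 (adjusted p = 0.00620). Gstp3, a pi-class gene outside the symbol rule, lay at 7.06, 6.90, 8.96 and 6.12 in tumor, against 12.23, 12.20, 11.11 and 10.03 in nontumor liver (-4.13 ± 0.66, adjusted p = 0.000712).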
